A study of Mus musculus with 10 samples.

Results

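The 9 genes described here make, cut or bind hyaluronan in the mouse. They are the hyaluronan synthase genes Has1, Has2 and Has3, the hyaluronidase genes Hyal1 and Hyal2, the receptor genes Cd44 and Hmmr, the versican gene Vcan and the gene Tnfaip6, and they were taken by symbol from a table of 24421 genes. All 9 had values above 0 and were among the 12926 genes tested. Expression was measured by poly(A) RNA sequencing of whole subcutaneous melanomas from mice labelled Siah2 KO (5 tumors) or WT (5 tumors), 10 days after injection of 100000 cells. In both groups the injected cells were YUMMER1.7, a mouse melanoma line with an activated Braf and without Cdkn2a, and the genotype in the labels was read as that of the host. The KO label stands for Siah2-/- mice, in which the deletion of this RING-type ubiquitin ligase gene is carried by the whole animal, and the state of Siah2 in the injected cells is not stated. The labels give the strain as C57Bl6 for the first sample and count the final digit up in the following ones, and the study's methods describe its mice as young males of a C57BL/6 background.

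Hyaluronan is a long unbranched sugar polymer of the extracellular matrix. Synthases in the plasma membrane build it from the nucleotide sugars UDP-glucuronic acid and UDP-N-acetylglucosamine and push it out of the cell, hyaluronidases cut it, and receptors and proteoglycans bind it. In tumors it is a main part of the loose matrix laid down by fibroblasts and tumor cells, and leukocytes move through it with the help of CD44.

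The values are normalized scores, which are read counts scaled between libraries by the authors and rounded to whole numbers. Their totals were 15605574 to 16503134 in KO-labelled tumors and 15414758 to 15527530 in WT tumors. The steps between low scores place an estimated 15.0 to 18.6 M reads in KO-labelled libraries and 10.8 to 18.2 M reads in WT libraries on the listed genes. Siah2 itself (mm10 chromosome 3, 58674938 to 58692400) was not lower in the tumors labelled KO, with 573, 739, 747, 490 and 610 against 391, 428, 407, 393 and 408 in WT tumors (log2 difference 0.62 ± 0.11 SE, limma adjusted p = 0.00104). The transcript thus went against the label. Which bases of Siah2 the mice lack is not stated, and reads from outside a deleted stretch would check nothing, so each direction below rests on the labels. Of 13 melanoma differentiation genes, 9 were listed at 0 in all tumors, among them Pmel, Mlana, Tyr, Dct and Sox10, so that most defining markers of the labelled tumor were not seen, and the 4 others summed to 362 to 499 in KO-labelled and 534 to 737 in WT tumors. The ribosomal protein genes Rpl26 and Rpl30, which every cell uses, were at 0 too, and 0 is given below only as a listed value. Values are given in the order replicates 1, 2 and 3 and columns KO4 and KO5 for KO-labelled tumors, and replicates 2 to 6 for WT tumors.

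Transcripts of the synthases Has1 and Has2, of the matrix proteoglycan versican and of the receptor CD44 were higher in KO-labelled tumors, while Tnfaip6, whose product TSG-6 cross-links hyaluronan, was lower. Has1 rose 4.32-fold, Vcan 1.79-fold, Has2 1.52-fold and Cd44 1.21-fold, and Tnfaip6 fell 1.85-fold. Fold changes and log2 differences are on the log2(score + 1) scale, KO-labelled over WT, so that changes at low scores come out too small. In all, 4 of the 9 genes were higher, 1 was lower and 4 did not pass the threshold (limma, adjusted p under 0.05). Among all genes tested, 35.6% passed, 17.5% as higher and 18.2% as lower, so the share of calls among the 9 genes was larger than the background, over a set too small to say more. Groups did not overlap for 5 of the 9 genes, against 24.8% of all genes tested. The median log2 difference of the 9 genes was 0.13, beside 0.00 over all genes. The scores of single tumors are plotted gene by gene.

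**Figure D1:**
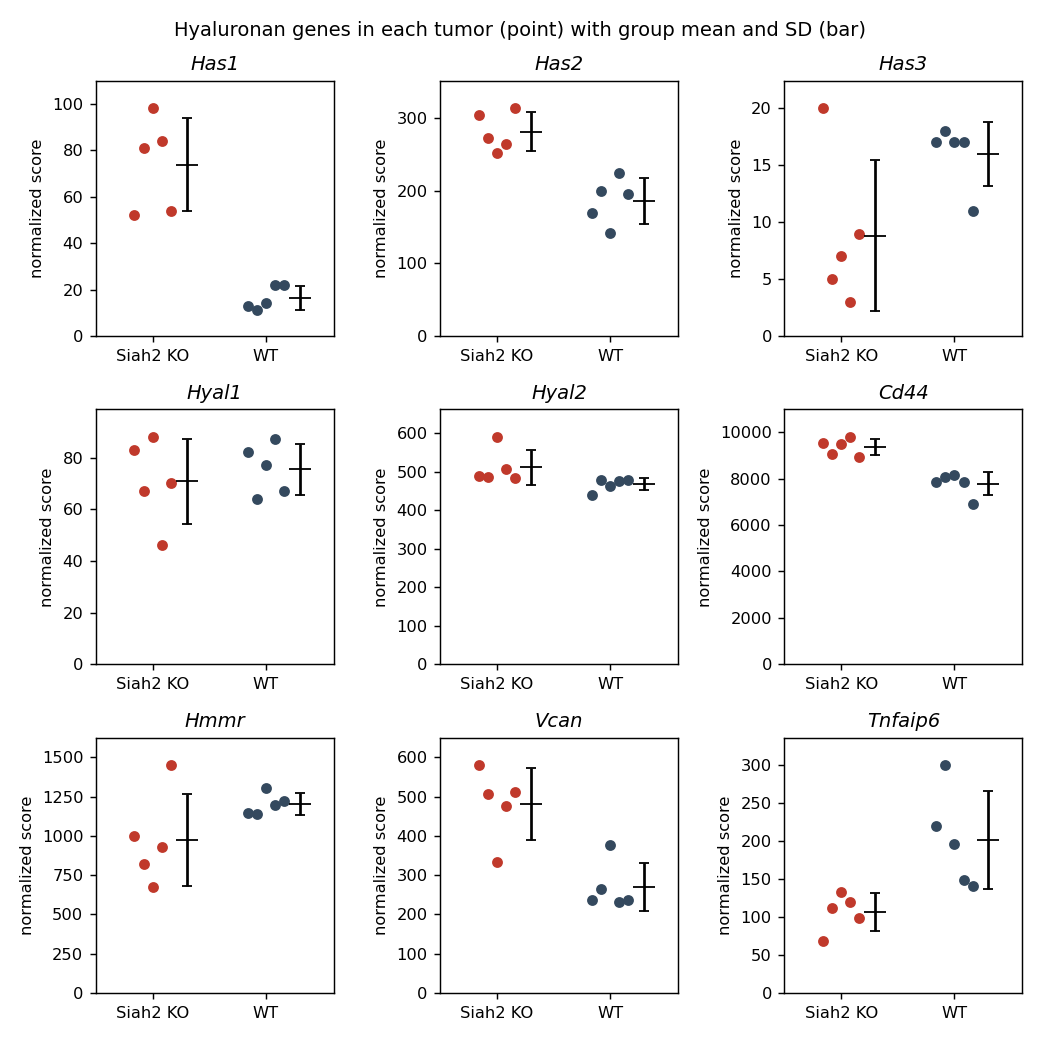
Normalized scores (vertical axes, from 0) of the 9 hyaluronan genes in 5 KO-labelled and 5 WT tumors. Each point is a tumor, and bars give the group mean and SD. All KO-labelled points lie above all WT points for Has1 (52 to 98 against 11 to 22), Has2, Hyal2 and Cd44, and below them for Tnfaip6.

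The change with the smallest p among the 9 genes was that of Has1 (mm10 chromosome 17, 17843323 to 17855205, minus strand), which encodes a synthase that is low in most resting tissues. Its score was 52, 81, 98, 84 and 54 in KO-labelled tumors, against 13, 11, 14, 22 and 22 in WT tumors. Even the lowest KO-labelled tumor, at 52, lay well above the highest WT tumor, at 22 (log2 difference 2.11 ± 0.25 SE, limma adjusted p = 5.87e-05). These scores correspond to an estimated 51 to 102 reads in KO-labelled and 9 to 25 reads in WT libraries, so the WT level rests on few reads. With a pseudocount of 10 the log2 difference was 1.65 and still passed.

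The start of Has1 is shown because it was the synthase gene that rose most. The stretch runs from chr17:17855206-17855325 (GRCm38.p6, minus strand, RefSeq) and ends at the base before the first exon annotated by GENCODE, which lies upstream of the RefSeq start. Capitals mark a cAMP response element, TGACGTCA on either strand.
Has1: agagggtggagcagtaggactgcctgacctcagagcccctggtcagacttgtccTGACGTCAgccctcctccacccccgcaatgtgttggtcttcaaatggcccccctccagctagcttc
These letters occur in 1.55% of 32851 promoter windows of 250 bases in the same table. Of the 9 genes, 7 have a window there, and only that of Has1 holds them. The match is a description of the sequence. Has2 and Has3 are named only.

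Has2 (mm10 chromosome 15, 56665627 to 56694539, minus strand) encodes the synthase that mouse embryos need for heart development. Its score was 305, 273, 253, 265 and 314 in KO-labelled tumors and 170, 200, 142, 225 and 196 in WT tumors. The groups did not overlap, and the lowest KO-labelled value, 253, stood near the highest WT value, 225 (log2 difference 0.61 ± 0.13 SE, limma adjusted p = 0.00265). The antisense RNA gene Has2os, which overlaps Has2 on the opposite strand, was listed at 0 in all tumors.

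Has3 (mm10 chromosome 8, 106870242 to 106884566) had low scores. The lowest mean of any gene tested was 9.8 over the 10 tumors, and Has3 was near it. Its score was 20, 5, 7, 3 and 9 in KO-labelled tumors and 17, 18, 17, 17 and 11 in WT tumors, an estimated 3 to 19 and 10 to 20 reads. KO-labelled replicate 1 was the highest of all 10 tumors, whereas the other KO-labelled tumors were below all WT tumors. The log2 difference of -1.01 (95% interval -1.86 to -0.16) did not pass (limma adjusted p = 0.062). Without KO-labelled replicate 1 it was -1.34 and passed (limma adjusted p = 0.0078, with 0.0078 to 0.175 over all alternatives). The opposite strand holds Chtf8, with scores of 1698 to 2171, and how the counting used strand is not stated.

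Levels of different genes were compared per kilobase of annotated exon. On this scale Has2 was the most abundant synthase in every tumor, with 66.6 ± 6.20 per kb in KO-labelled and 44.0 ± 7.47 per kb in WT tumors (SD, n = 5 each). Has1 followed with 16.3 ± 4.44 per kb in KO-labelled tumors, while in WT tumors it stood at 3.63 ± 1.16 per kb, next to Has3 with 2.51 ± 0.443 per kb. In WT tumors the ranges of Has1 (2.43 to 4.87 per kb) and Has3 (1.72 to 2.82 per kb) overlapped, so their order there was within the spread. In KO-labelled tumors Has3 was 0.470 to 3.13 per kb, below all Has1 values.

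The mix of synthase transcripts differed accordingly. The share of Has1 in the summed synthase score per kb was 13.3, 21.6, 26.3, 22.8 and 13.7% in KO-labelled tumors and 6.30, 4.64, 7.89, 8.03 and 9.21% in WT tumors. That of Has2 was 78.9 ± 5.03% in KO-labelled and 87.7 ± 1.65% in WT tumors. The sum of the 3 genes was 81.6 to 87.5 per kb in KO-labelled and 39.3 to 60.6 per kb in WT tumors. KO-labelled tumors were thus alike in the sum and varied in the mix, with Has2 lowest (59.7 per kb) in replicate 3, where Has1 was highest (21.7 per kb). No test was made of these sums and shares.

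**Figure D2:**
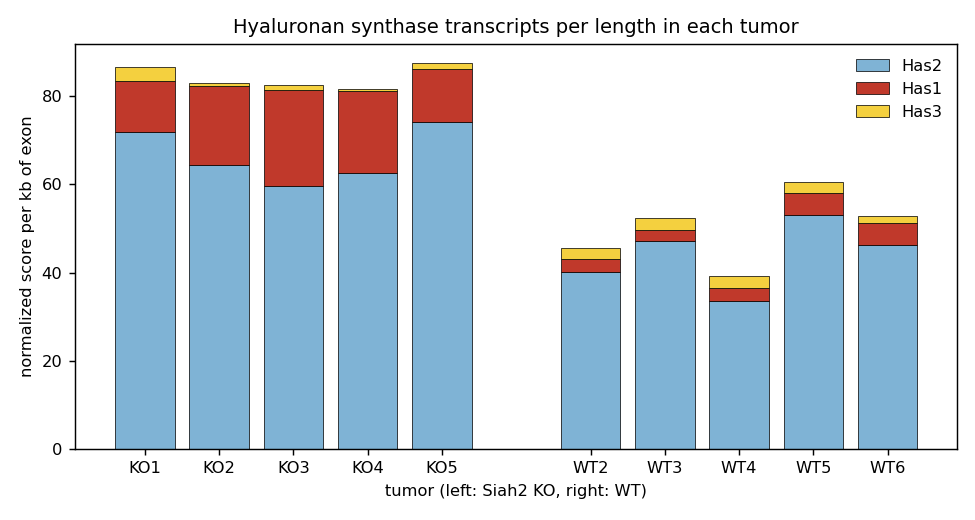
Stacked normalized scores per kilobase of annotated exon (vertical axis) of Has2, Has1 and Has3 in each tumor, with the 5 KO-labelled tumors on the left and the 5 WT tumors on the right. The bars reach 81.6 to 87.5 in KO-labelled and 39.3 to 60.6 in WT tumors, and Has1 takes 13.3 to 26.3% of the bar in KO-labelled and 4.64 to 9.21% in WT tumors.

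Enzymes that supply the synthases were followed as a list of 7 genes, of which 2 rose, none fell and 5 did not pass (median log2 difference 0.21). By comparison, 17.5% of all genes tested were higher and 18.2% lower. Ugdh, which makes UDP-glucuronic acid, was 3032, 3165, 3080, 3120 and 3025 in KO-labelled tumors and 2529, 2634, 2557, 2710 and 2459 in WT tumors. The groups did not overlap, with a log2 difference of 0.26 ± 0.06 (SE, limma adjusted p = 0.00388) or a 1.20-fold rise. The call was lost in the 4 tumors numbered 2 and 3, with the replicate number as a block or without it (limma adjusted p = 0.093 and 0.0852, with 0.00359 to 0.093 over all alternatives). Gnpnat1, which acetylates glucosamine 6-phosphate on the way to UDP-N-acetylglucosamine, was 460, 451, 496, 422 and 360 in KO-labelled tumors and 327, 306, 323, 325 and 280 in WT tumors. Here too the groups were separate, at a 1.40-fold rise (limma adjusted p = 0.00215, log2 difference 0.48 ± 0.10 SE). Gfpt1, which encodes the enzyme that opens this route, had a log2 difference of 0.03 (95% interval -0.20 to 0.27).

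The hyaluronidase genes did not pass. Hyal2 (mm10 chromosome 9, 107567945 to 107572779) encodes an enzyme held at the cell surface by a lipid anchor that cuts long chains. Its score was 489, 487, 591, 508 and 485 in KO-labelled tumors and 441, 479, 464, 477 and 478 in WT tumors. Each KO-labelled value was above each WT value, yet the groups came as near as 485 in a KO-labelled and 479 in a WT tumor, and the log2 difference of 0.13 (95% interval -0.04 to 0.30) did not pass (limma adjusted p = 0.226). Hyal1 (mm10 chromosome 9, 107576927 to 107581710), a lysosomal enzyme that cuts shorter chains, was 83, 67, 88, 46 and 70 in KO-labelled tumors and 82, 64, 77, 87 and 67 in WT tumors. The groups overlapped, and the log2 difference was -0.11 (95% interval -0.50 to 0.27, limma adjusted p = 0.645), or 0.03 without column KO4, the lowest tumor. Hyal1 shares its place on the plus strand with Nat6 and Hyal3, and how reads in shared stretches were counted is not stated. Nat6 had 207 to 338 in KO-labelled and 223 to 296 in WT tumors, and Hyal3 was listed at 0 in all tumors.

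Of 10 further breakdown genes in the table, 5 had values above 0, of which 1 fell and 4 did not pass (median log2 difference -0.23). Over all genes tested, 18.2% were lower. The gene that fell was Tmem2, also named Cemip2, which encodes a cell surface protein described as a hyaluronidase in mouse. It was 2136, 1833, 1708, 1615 and 1889 in KO-labelled tumors and 2863, 3029, 2919, 2665 and 2902 in WT tumors. The groups lay far apart relative to their spread, with a log2 difference of -0.65 ± 0.08 (SE; limma adjusted p = 7.23e-05), a 1.57-fold fall. Its relative Cemip, also needed for hyaluronan breakdown, had 126 to 249 in KO-labelled and 190 to 244 in WT tumors and did not pass (limma adjusted p = 0.131). The lysosomal sugar-cleaving enzyme genes Hexa and Gusb did not pass either.

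Cd44 (mm10 chromosome 2, 102811141 to 102901665, minus strand) encodes the main hyaluronan receptor of leukocytes, fibroblasts and many tumor cells and was by far the most abundant of the 9 genes per length. Its level was 1380 ± 52.9 per kb in KO-labelled and 1150 ± 73.3 per kb in WT tumors (SD, n = 5 each). Its score was 9528, 9041, 9493, 9794 and 8938 in KO-labelled tumors and 7859, 8059, 8158, 7858 and 6911 in WT tumors. The groups did not overlap, and the rise was small, with a log2 difference of 0.27 ± 0.07 (SE, limma adjusted p = 0.00874). Each score sums all splice forms, so the standard form and the variant forms cannot be told apart. The epithelial splicing factor genes Esrp1 and Esrp2 were listed at 0 in all tumors.

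Genes whose products bind, anchor or signal with CD44 were followed as a list of 10, of which 8 had values above 0. Of these, 4 rose, 2 fell and 2 did not pass (median log2 difference 0.34), beside 17.5% higher and 18.2% lower over all genes. Srgn, which encodes serglycin, a granule proteoglycan of blood cells that binds CD44, was 3669, 3801, 4560, 5761 and 2751 in KO-labelled tumors and 1583, 1681, 1513, 1678 and 1228 in WT tumors. The groups lay wide apart, at a 2.61-fold rise (limma adjusted p = 5.53e-05, log2 difference 1.38 ± 0.16 SE). The cytokine gene Mif rose 1.64-fold (limma adjusted p = 0.000255), and so did Ezr, which encodes ezrin, a link between CD44 and the actin cortex (1.64-fold, limma adjusted p = 0.000288). Its relatives Rdx and Msn did not pass, with log2 differences of -0.08 and -0.03. Spp1, which encodes osteopontin, a CD44 ligand, was 17854, 19549, 26536, 21483 and 14683 in KO-labelled tumors and 32834, 34403, 27880, 37544 and 31588 in WT tumors (log2 difference -0.74 ± 0.14 SE, limma adjusted p = 0.00154). Each KO-labelled tumor was below each WT tumor. In the 4 tumors numbered 2 and 3 the Spp1 call was lost with the block and without it (limma adjusted p = 0.0506 and 0.0692, with 0.000429 to 0.0692 over all alternatives), and so was that of Cd44 (limma adjusted p = 0.254 and 0.18, with 0.00775 to 0.254 over all alternatives). The remaining calls of the list, named after their values were seen, were a rise of Cd74, the receptor of MIF that signals through CD44 (log2 difference 0.71), and a fall of Nf2, which encodes merlin (log2 difference -0.29, limma adjusted p = 0.0498).

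Hmmr (mm10 chromosome 11, 40701395 to 40733422, minus strand) encodes RHAMM, which binds hyaluronan at the cell surface and microtubules of the mitotic spindle inside the cell. Its score was 997, 818, 672, 926 and 1449 in KO-labelled tumors and 1147, 1142, 1307, 1195 and 1221 in WT tumors. Column KO5 was above all WT tumors and the other 4 KO-labelled tumors were below them. The log2 difference of -0.35 (95% interval -0.69 to -0.01) did not pass (limma adjusted p = 0.0981). Without column KO5 it was -0.51 and passed (limma adjusted p = 0.00279), as it did without both columns of uncertain number, KO4 and KO5 (-0.55, limma adjusted p = 0.00355, with 0.00243 to 0.228 over all alternatives).

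Hmmr was set beside a list of 15 mitosis genes. Of these, none rose, 4 fell and 11 did not pass, beside 18.2% lower over all genes tested. Their summed score was 21305 to 31595 in KO-labelled and 26392 to 30456 in WT tumors. The proliferation marker Mki67 was 3409, 2308, 1546, 2041 and 3721 in KO-labelled tumors, so that it too was lowest in replicate 3 and highest in column KO5, against 3549 to 4471 in WT tumors. Top2a was 6965 to 9844 in KO-labelled and 7292 to 8580 in WT tumors and Tpx2 was 1629 to 2117 in KO-labelled and 1821 to 2123 in WT tumors. The part of cell division in the Hmmr values was not tested. The stretch before the RefSeq start of Hmmr, chr11:40733438-40733557 (GRCm38.p6, minus strand, RefSeq), is shown because its window held the most CCAAT boxes of the 7. Capitals mark the CCAAT box, searched as CCAAT on both strands, of which this stretch holds 3.
Hmmr: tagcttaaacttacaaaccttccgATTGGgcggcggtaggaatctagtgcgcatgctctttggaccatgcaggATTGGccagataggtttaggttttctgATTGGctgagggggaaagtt
The whole window of 250 bases holds 5 CCAAT boxes, and 33.8% of all windows hold at least 1.

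Other hyaluronan receptors at the cell surface went down or did not pass. Of 5 with values above 0, none rose, 2 fell and 3 did not pass (median log2 difference -0.15), beside 18.2% lower over all genes tested. Lyve1, the receptor of lymphatic endothelium and of some tissue macrophages, was 35, 50, 44, 34 and 43 in KO-labelled tumors and 185, 606, 539, 229 and 227 in WT tumors. WT replicates 3 and 4 were far above the other WT tumors, and all of them were above the KO-labelled ones (log2 difference -2.92 ± 0.30 SE, limma adjusted p = 2.14e-05). Of 4 lymphatic endothelial markers, Prox1 and Ccl21a were listed at 0 in all tumors, Flt4 had 22 to 43 in KO-labelled and 36 to 51 in WT tumors, and Pdpn, which other cell types express too, was 5527 to 9501 in KO-labelled and 2715 to 3945 in WT tumors and rose. The summed score of the list, 5554 to 9523 in KO-labelled and 2764 to 3981 in WT tumors, was almost wholly Pdpn, and the part of lymphatic vessels in the Lyve1 values was not tested. Stab1, a scavenger receptor related to the hyaluronan receptor stabilin-2, was 2008 to 2874 in KO-labelled and 4306 to 5635 in WT tumors (log2 difference -0.93 ± 0.11 SE, limma adjusted p = 4.32e-05). Layn, which encodes layilin, and the pattern receptors Tlr2 and Tlr4 did not pass, with log2 differences of -0.15, 0.28 and 0.07.

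Vcan (mm10 chromosome 13, 89655312 to 89742509, minus strand) encodes versican, a large chondroitin sulfate proteoglycan that binds hyaluronan with its amino-terminal domain and makes matrix looser and more hydrated. Its score was 580, 506, 334, 475 and 512 in KO-labelled tumors and 236, 265, 377, 231 and 238 in WT tumors. KO-labelled replicate 3 lay below WT replicate 4, and apart from that pair each KO-labelled tumor was above each WT tumor (log2 difference 0.84 ± 0.16 SE, limma adjusted p = 0.00171). Per length its level was 33.3 ± 6.28 per kb in KO-labelled and 18.6 ± 4.26 per kb in WT tumors (SD, n = 5 each). The stretch before its RefSeq start, chr13:89742513-89742632 (GRCm38.p6, minus strand, RefSeq), is shown as that of the matrix gene that rose. Capitals mark its CCAAT box.
Vcan: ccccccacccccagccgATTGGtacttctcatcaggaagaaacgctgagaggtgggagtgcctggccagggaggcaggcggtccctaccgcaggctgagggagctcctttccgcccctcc

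Proteases that cut versican or CD44 were lower or did not pass. Of 9 listed, 8 had values above 0, of which none rose, 3 fell and 5 did not pass (median log2 difference -0.12). Over all genes tested, 35.6% passed and 18.2% were lower, and the list is small. Adamts9, which cleaves versican, was 419, 398, 240, 254 and 367 in KO-labelled tumors and 677, 806, 876, 597 and 752 in WT tumors. The groups did not overlap, and the log2 difference was -1.17 ± 0.17 (SE, limma adjusted p = 0.000206), a 2.24-fold fall. Of the other versican-cleaving enzymes, Adamts1 and Adamts5 had log2 differences of 0.00, and Adamts4 had -0.38 (limma adjusted p = 0.0604). Mmp14, a membrane protease that sheds CD44, was 6853 to 7363 in KO-labelled and 8656 to 9493 in WT tumors (log2 difference -0.37 ± 0.06 SE, limma adjusted p = 0.000544). Adam10, another CD44 sheddase, had a log2 difference of -0.25 ± 0.09 SE (limma adjusted p = 0.0408), a call lost under 9 alternatives, among them leaving out column KO4, KO-labelled replicate 2 or 3, or WT replicate 2, 3, 4 or 6 (limma adjusted p 0.0134 to 0.105 over all alternatives). Adam17, also a CD44 sheddase, had 3233 to 3627 in KO-labelled and 2737 to 3228 in WT tumors, without overlap, and did not pass (limma adjusted p = 0.0537).

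Tnfaip6 (mm10 chromosome 2, 52038009 to 52056686) encodes TSG-6, a secreted protein made in inflammation that moves heavy chains of inter-alpha-inhibitor onto hyaluronan. Its score was 68, 112, 132, 120 and 99 in KO-labelled tumors and 219, 299, 196, 148 and 140 in WT tumors. The groups did not overlap, although the highest KO-labelled value, 132, stood close to the lowest WT value, 140 (log2 difference -0.89 ± 0.22 SE, limma adjusted p = 0.00756). The stretch before its first GENCODE exon, chr2:52037889-52038008 (GRCm38.p6, plus strand, RefSeq), is shown because Tnfaip6 was the gene of the set that fell. Capitals mark a CCAAT box and an AP-1 motif, searched as TGANTCA on both strands.
Tnfaip6: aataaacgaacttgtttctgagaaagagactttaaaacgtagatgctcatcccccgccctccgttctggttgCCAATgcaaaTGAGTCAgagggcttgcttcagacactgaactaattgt
The AP-1 letters occur in 6.75% of all windows and, among the 7 windows of these genes, only in that of Tnfaip6. The box TATAAA, present in 12.4% of all windows, was in none of the 7.

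Other binders and cross-linkers of hyaluronan were followed as a list. Of 14 listed binders and cross-linkers, 5 had values above 0, of which 2 rose, none fell and 3 did not pass (median log2 difference 0.04). Over all genes tested, 17.5% were higher. Ptx3, which encodes pentraxin 3, a protein that cross-links heavy chain-bearing hyaluronan together with TSG-6, was 127, 121, 197, 248 and 69 in KO-labelled tumors and 33, 39, 58, 70 and 41 in WT tumors. Column KO5 lay just below the highest WT tumor, and the other KO-labelled tumors were above all WT tumors (log2 difference 1.56 ± 0.31 SE, limma adjusted p = 0.00195). Itih4, of the heavy chain family, was 16, 83, 9, 35 and 21 in KO-labelled tumors and 3, 16, 8, 2 and 9 in WT tumors. It rose at low scores (log2 difference 1.85 ± 0.58 SE, limma adjusted p = 0.0255), and the call was lost under 7 alternatives, among them leaving out column KO4, KO-labelled replicate 2, or WT replicate 2 or 5 (limma adjusted p 0.013 to 0.262 over all alternatives). Itih2 was 43 to 112 in KO-labelled and 101 to 133 in WT tumors and did not pass (log2 difference -0.62, limma adjusted p = 0.0521). Itih5, of the same family, was 31 to 77 in KO-labelled and 44 to 88 in WT tumors and did not pass (log2 difference -0.48, limma adjusted p = 0.212), nor did the link protein gene Hapln4 (log2 difference 0.04). The proteoglycan genes Acan, Bcan and Ncan and the link protein genes Hapln1, Hapln2 and Hapln3 were among the 9 listed at 0.

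**Figure D3:**
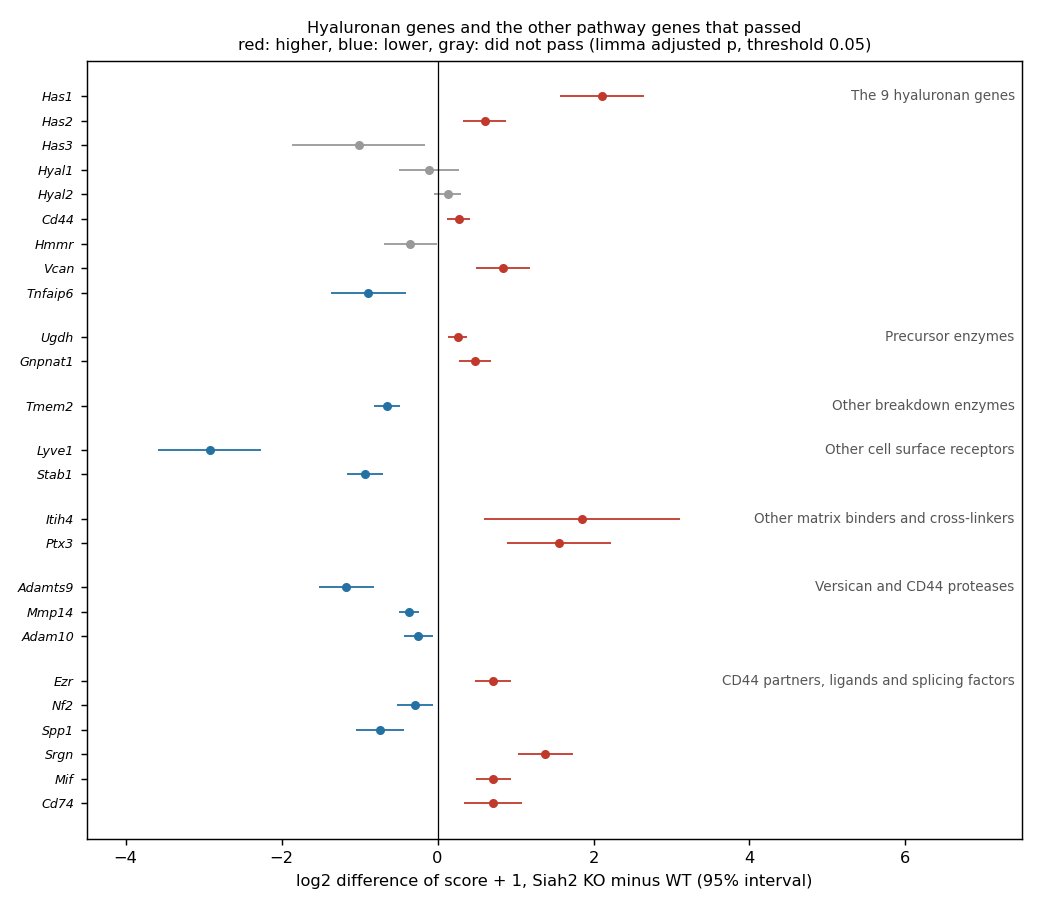
Log2 differences of score + 1, Siah2 KO minus WT (horizontal axis), with 95% intervals from limma, for the 9 genes (top) and the 16 further genes that passed among the 6 pathway lists. Red points were higher, blue points lower and gray points did not pass at an adjusted p of 0.05. Of the 16 further genes, 8 were higher and 8 lower.

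Taking the 6 lists as 1 set, 38 of the 56 genes in the table had values above 0, and 8 rose, 8 fell and 22 did not pass, with a median log2 difference of 0.02. This share of calls was near that of all genes tested (35.6%).

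Markers of several cell types moved beside these genes, against 17.5% higher and 18.2% lower over all genes tested. Among 10 fibroblast genes there were 8 that fell, and Thy1 rose while Mfap5 did not pass. Their summed score was 72457 to 103216 in KO-labelled and 146582 to 164011 in WT tumors. The collagen genes Col3a1, Col1a2 and Col1a1, the most abundant of the list, had log2 differences of -0.87, -0.80 and -0.43. Has1, Has2 and Vcan, which fibroblasts express, were higher in the same KO-labelled tumors. Whether fibroblasts or other cells, such as the tumor cells, made these transcripts was not tested. Of 9 macrophage genes, 5 rose and none fell, with a summed score of 55338 to 92678 in KO-labelled and 48192 to 60005 in WT tumors. The most abundant, Lyz2, C1qb and C1qa, had log2 differences of 0.19 (not passing), 0.40 and 0.41. Adgre1, Csf1r and Mertk did not pass either, with log2 differences of 0.25, -0.08 and -0.47. Of 6 T cell genes, 5 rose and none fell, with sums of 1273 to 2326 in KO-labelled and 745 to 1100 in WT tumors. The most abundant of them, Cd8a, Cd3g and Cd3d, had log2 differences of 1.33, 1.03 and 1.25. Cd4, the T cell gene that did not pass, had a log2 difference of -0.22. Macrophages and T cells also express Cd44, and macrophages Lyve1, Stab1 and Tnfaip6. In whole tumors, fewer cells of a type and less RNA per cell cannot be told apart, and the part of any cell type in the changes of the 9 genes was not tested.

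The genes whose scores ran most alike to each changed gene were found from the root mean square (RMS) difference of centred log2 values over the 10 tumors. For Has1 they were the granzyme gene Gzma (RMS 0.27), Ms4a4d (0.27) and the hexokinase gene Hk3 (0.30). For Has2 they included Mfap3l (RMS 0.14) and the plakophilin gene Pkp3 (0.15). For Vcan they included the adhesion gene Chl1 (RMS 0.22) and the interleukin 18 receptor gene Il18r1 (0.23). For Cd44 they were Sptlc2, Twistnb and Gmps (each 0.06), and for Tnfaip6 they were Fkbp7 (0.25), the integrin gene Itgae (0.25) and the transcription factor gene Cebpa (0.26). The measure includes the difference between groups, and all of these genes passed the threshold in the direction of the gene they ran with.

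**Figure D4:**
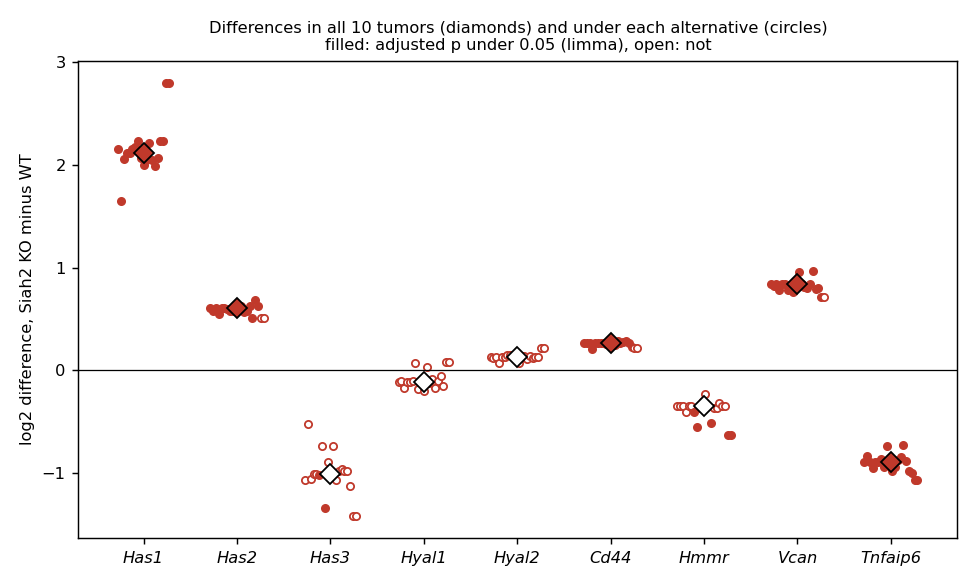
Log2 differences, Siah2 KO minus WT (vertical axis), of the 9 genes in all 10 tumors (diamonds) and under each alternative (circles), where filled symbols passed an adjusted p of 0.05 with limma and open symbols did not. Has1 lies between 1.65 and 2.80 and Tnfaip6 between -1.07 and -0.73 with all symbols filled, and Hyal1 crosses 0. Has3 and Hmmr pass under some alternatives only, and Has2, Cd44 and Vcan each have open symbols among their alternatives.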

How the data were processed

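Single-end reads of 10 tumor libraries were checked with FastQC, aligned to mm10 with STAR, counted per gene with featureCounts and normalized with edgeR through SARTools, as the submitters' processing notes and the methods state. The sources used here give no tool versions, gene annotation or strand setting. Each deposited score is the read count of a gene in a tumor after the authors' normalization, rounded to a whole number, so count models were not used. Of 24421 genes, 11495 were listed at 0 in every library, and none of the others had a mean score below 9.8. Whether a listed 0 stands for a read count of 0 is not stated. The other 12926 were tested on log2(score + 1) with limma 3.58.1 in R 4.3.3 (genotype only, mean-variance trend, Benjamini-Hochberg adjustment over all of them, threshold 0.05), after a check on simulated data. P-values weigh the difference between groups against the spread between tumors of a group, with that spread moderated over all genes. Groups came from the sample titles, and 2 columns (KO4 and KO5) carry no certain replicate number. Read numbers were estimated from the steps between low scores in each library, and no counting interval was derived. Positions and exon lengths are from GENCODE M21 (GRCm38), and promoters are from RefSeq (GRCm38.p6). Motifs were chosen after the promoters were seen.

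The 9 genes, the lists and the tests were chosen with earlier results of these data known. Named genes were Siah2, the 9 genes, up to 4 genes with the smallest p past the threshold in each pathway list, the 3 most abundant genes of a marker list set beside a result, and the 3 genes most alike to each changed gene, of which some are not reported here. Alternatives were pseudocounts of 0.5 and 10, a minimum mean score of 100, total-count and median-ratio scaling, no trend, array weights, leaving out columns KO4 and KO5 or each tumor, and the replicate number as a block.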

Additional observations from a re-analysis of the deposited data

Results flagged for a closer look

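In 4 groups of tumors, 1 tumor stood apart from the other 4 by more than 0.71 of the whole range of the group. Has3 was 11 in WT replicate 6, with 17 as the next value, and Cd44 was 6911 in the same tumor, with 7858 as the next. Hyal2 was 591 in KO-labelled replicate 3, with 508 as the next value, and Vcan was 377 in WT replicate 4, with 265 as the next. Chance flags about 1 in 20 groups, and 48 groups were examined.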

How the results depend on the processing

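Has1, Tnfaip6 and Siah2 kept direction and call under all their alternatives, and Hyal2 kept its direction and did not pass under any. Those differences ranged from 1.65 to 2.80, from -1.07 to -0.73, from 0.56 to 0.86 and from 0.07 to 0.22. With a minimum mean score of 100, Has1, Has3 and Hyal1 had no value. Array weights brought Has3 (-1.02, limma adjusted p = 0.0439) and Hmmr (-0.41, limma adjusted p = 0.0267) past the threshold, and without columns KO4 and KO5 Hmmr passed with -0.55 and Hyal1 turned to 0.07. With 1 tumor left out, Has3 was -1.34 to -0.74, Hmmr -0.51 to -0.23 and Hyal1 -0.20 to 0.03, 5 to 6 of the 9 genes passed, and 3649 to 5182 of all genes passed. Of 14 named pathway genes, 10 kept their call and Itih4, Adam10, Ugdh and Spp1 did not, and no sign changed. With total-count scaling 38.6% of calls were higher, against 49.0% with the authors' scaling.

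Tumors numbered 2 and 3 were present in both groups, and the correlation of their deviations from the group mean was 0.03 and 0.05. What the number stands for is not stated, and so few pairs cannot tell whether tumors of the same number are related. With the replicate block, 3902 of all genes and 4 of the 9 passed. Hmmr passed (-0.63), Has2 (0.51, limma adjusted p = 0.0674) and Cd44 (0.22, limma adjusted p = 0.254) did not, and Hyal1 was 0.08. The same 4 tumors without the block, added after seeing the data, gave 2938 of all genes and 3 of the 9, with Has2 at 0.51, Cd44 at 0.22, Vcan at 0.71 and Hyal1 at 0.08 short of the threshold and Hmmr at -0.63 past it. Has2 and Cd44 thus lost their calls without the block too, at the same differences (limma adjusted p = 0.0744 and 0.18), so their loss did not need the block. Both fits hold fewer tumors, and the parts of tumor number and of which tumors were kept were not separated. Low scores limit Has3, Itih4 and the WT level of Has1.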
